A study of Mus musculus with 9 samples.

Results

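The genes described here are the 7 cyclin-dependent kinase (CDK) inhibitor genes of the mouse, Cdkn1a, Cdkn1b, Cdkn1c, Cdkn2a, Cdkn2b, Cdkn2c and Cdkn2d, out of 20791 named genes that were tested on the arrays. They were taken by symbol, through the RefSeq accession of each probe, and 10 probes measured them. Cdkn1a, Cdkn2a and Cdkn2b had 2 probes each and the other genes had 1. The brightest probe stands for its gene, and the other probe is given beside it. RNA was measured on 9 one-color microarrays, 4 of control lung and 5 of irradiated left lung, of male C57BL/6 mice aged 10 weeks. The irradiation protocol used anesthesia with zoletil at 30 mg/kg and rompun at 10 mg/kg. Per the study's methods, RNA of triplicate experiments was pooled before labeling, so that 1 array is 1 pool. The labels of these arrays give neither radiation dose nor lung region nor time, so the spread between the irradiated arrays holds any such difference, and p-values measure the spread between these pools.

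CDK inhibitors hold back the kinases that drive a cell from G1 into S phase. The CIP/KIP proteins p21 (Cdkn1a), p27 (Cdkn1b) and p57 (Cdkn1c) bind complexes of a cyclin and a CDK, whereas the INK4 proteins p16 (Cdkn2a), p15 (Cdkn2b), p18 (Cdkn2c) and p19 (Cdkn2d) bind CDK4 and CDK6 and keep cyclin D away. Active CDK phosphorylates the retinoblastoma protein RB, which frees E2F factors to transcribe S-phase genes. p53, which DNA damage stabilizes, transcribes Cdkn1a, and Cdkn2a also encodes p19Arf in another reading frame, which protects p53 from Mdm2. Senescence, a lasting arrest with a secretion of cytokines and proteases, is known for high p21 and p16.

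The 250 bases before the start were read from a RefSeq table (GRCm38.p6), which held 9 windows for 6 of the 7 genes. Those of Cdkn1a and the upstream one of Cdkn2a are shown, since these genes differed most between the groups. The capitals mark a match to the full p53 binding-site consensus in the first sequence (chr17:29090729-29090978, plus strand), GGGCGG boxes in the second (chr17:29093519-29093768, plus strand) and TTTCCCGC, an E2F-type motif, in the third (chr4:89294620-89294869, minus strand).
Cdkn1a, upstream start: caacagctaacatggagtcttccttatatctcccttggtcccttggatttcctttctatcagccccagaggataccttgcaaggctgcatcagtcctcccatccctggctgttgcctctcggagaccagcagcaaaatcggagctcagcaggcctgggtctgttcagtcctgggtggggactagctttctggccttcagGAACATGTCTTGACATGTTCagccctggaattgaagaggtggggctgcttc
Cdkn1a, downstream start: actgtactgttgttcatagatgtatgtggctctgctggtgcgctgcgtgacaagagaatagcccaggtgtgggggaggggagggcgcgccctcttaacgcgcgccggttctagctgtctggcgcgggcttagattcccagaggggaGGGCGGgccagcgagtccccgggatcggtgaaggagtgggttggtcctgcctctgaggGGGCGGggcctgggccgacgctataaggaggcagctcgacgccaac
Cdkn2a, upstream start: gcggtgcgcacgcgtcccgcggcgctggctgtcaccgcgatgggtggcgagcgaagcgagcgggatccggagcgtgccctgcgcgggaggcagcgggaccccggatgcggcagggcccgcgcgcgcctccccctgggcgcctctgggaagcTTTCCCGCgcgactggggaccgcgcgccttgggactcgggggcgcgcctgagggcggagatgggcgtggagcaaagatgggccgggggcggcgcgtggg
The starts of the Cdkn1a windows lie 2790 bases apart. The p53 match begins 51 bases before the upstream start and departs from the consensus at 1 of 20 positions. Searched without a spacer and with at most 1 such departure, the consensus was found in 29 of 32851 windows of 300 bases (0.0883%), and its inner pattern CATGNNNNNNCATG in 0.712%. TTTCCCGC was found on either strand in 1.07% of the windows and GGGCGG in 35.7%. These motifs were chosen after the sequences had been seen. No match to the p53 consensus was present in the windows of the other members. These are matches of letters, and binding was not measured.

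Of the 7 genes, Cdkn1a rose in the irradiated arrays and none fell past the threshold, which was a limma adjusted p under 0.05. Among all 20791 genes, 0.245% rose and 0.149% fell, and 131 of 39303 probes passed in either direction (0.333%). The irradiated arrays all lay above the control arrays for 1 member, Cdkn1a, and all below for 1 member, Cdkn1b, against 3.22% and 1.74% of all genes. The median difference of the 7 genes was 0.17 on the log2 scale, against 0.01 for all named genes.

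**Figure D1:**
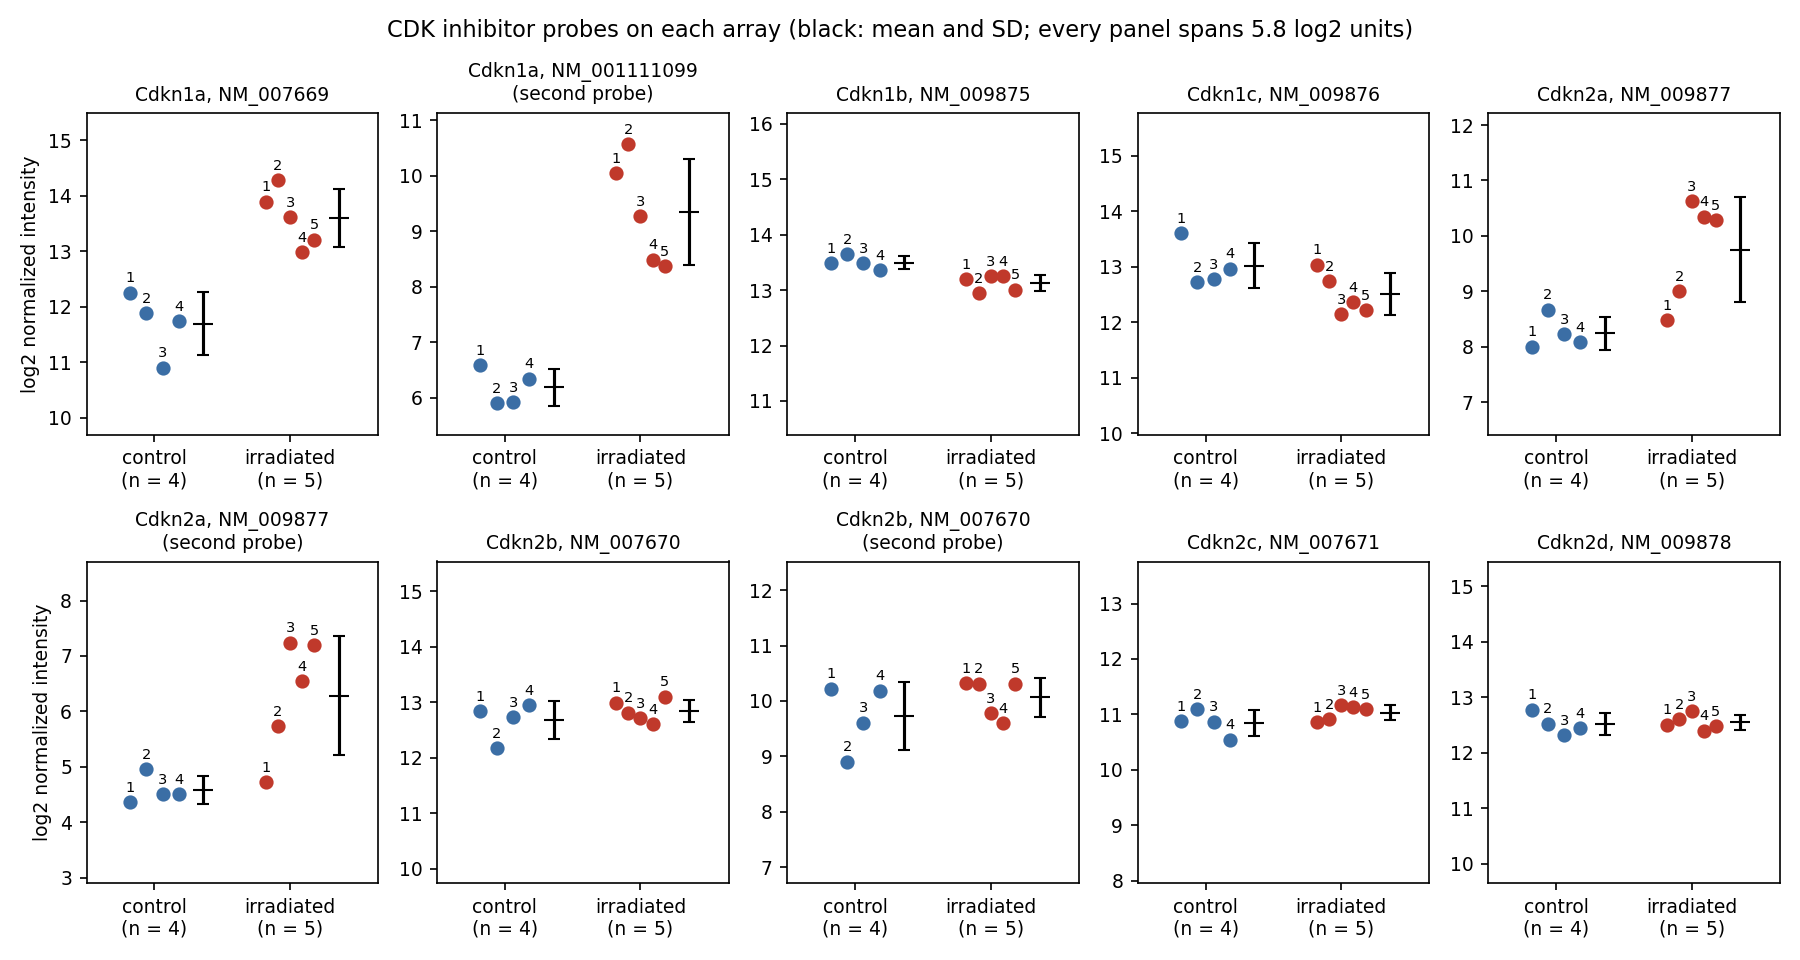
Log2 normalized intensity of the 10 CDK inhibitor probes on each array, with control arrays in blue (n = 4), irradiated arrays in red (n = 5), array numbers above the points, and mean and SD in black. Both Cdkn1a probes lie higher on all 5 irradiated arrays, whereas the Cdkn2a probes are highest on irradiated arrays 3, 4 and 5.

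**Figure D2:**
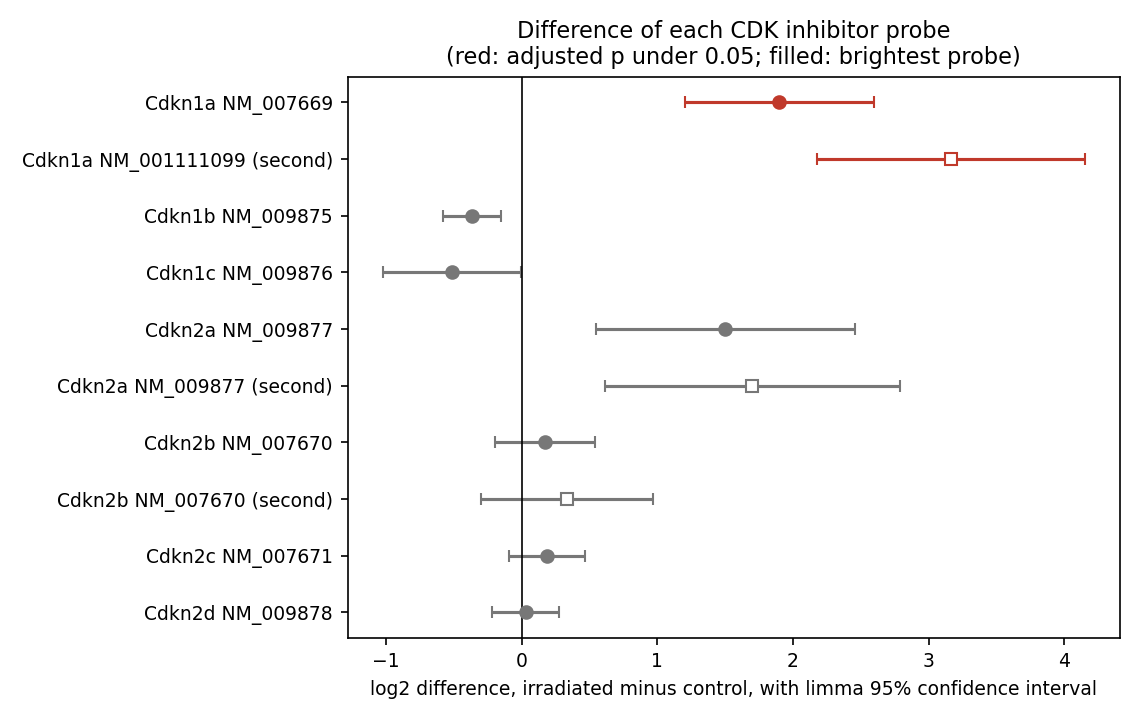
Difference between irradiated and control arrays for each probe on the log2 scale (horizontal axis) with its 95% confidence interval from limma. Filled circles are the brightest probes and open squares the second probes, and only the Cdkn1a probes, at 1.90 and 3.16, passed the threshold (red).

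Cdkn1a, whose product p21 stops the cell cycle downstream of p53, was 3.73-fold higher in the irradiated arrays. Its brightest probe (NM_007669) read 12.25, 11.89, 10.90 and 11.74 on control arrays 1 to 4, as log2 normalized intensity. On irradiated arrays 1 to 5 it read 13.89, 14.29, 13.61, 12.98 and 13.21. All irradiated arrays lay above all control arrays, with irradiated array 2 the highest and control array 3 the lowest. The difference was 1.90 on the log2 scale (SE 0.31, 95% confidence interval 1.21 to 2.59, adjusted p = 0.0440 by limma), and the exact two-sided permutation p was 0.00794, the smallest that 4 against 5 arrays can give. This probe was printed at 10 spots, whose SD within an array was 0.0188 to 0.0465, below the spread between arrays (SD 0.57 for controls and 0.52 for irradiated arrays). The adjusted p stayed under 0.05 when irradiated array 1 was left out (0.0408) and was 0.0585 to 0.145 when any other single array was left out, while the difference stayed between 1.64 and 2.09. With the variance fitted without an intensity trend it was 0.0770, and it was 0.0504 in the authors' normalized table.

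The second Cdkn1a probe, matched to transcript NM_001111099, showed the same order of groups. It read 6.58, 5.89, 5.91 and 6.34 on the control arrays and 10.05, 10.57, 9.27, 8.48 and 8.36 on the irradiated arrays. Its difference was 3.16 (SE 0.44, adjusted p = 0.0312 by limma), 8.97-fold. With single arrays left out it stayed between 2.86 and 3.41 and passed only without irradiated array 1 or 5, and in the authors' normalized table it was 2.15 (adjusted p = 0.101 by limma). The log2 ratio of this probe to the brightest one, within each array, was -5.67, -5.99, -4.99 and -5.40 on the control arrays and -3.85, -3.72, -4.34, -4.50 and -4.85 on the irradiated arrays, so that it was higher on every irradiated array. The shift of this ratio, which was examined after the values had been seen, was 1.26 (exact permutation p = 0.0159). It was 1.09 after scaling to the 75th percentile (exact permutation p = 0.0238), 0.60 on the authors' normalized values (exact permutation p = 0.0397) and 0.47 after normexp background correction (exact permutation p = 0.111), and the groups overlapped in these 3 settings. Whether the probes differ in their transcripts or in their response at low intensity was not tested.

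Cdkn1b and Cdkn1c, the other CIP/KIP genes, pointed the opposite way, and neither passed the threshold. Cdkn1b, which encodes p27 and is known as an inhibitor of resting cells, read 13.49, 13.64, 13.49 and 13.36 on the control arrays and 13.20, 12.94, 13.25, 13.24 and 13.01 on the irradiated arrays. The groups did not overlap, though the gap between the lowest control and the highest irradiated array was small. The difference was -0.37 (SE 0.10, 95% confidence interval -0.58 to -0.15, adjusted p = 0.175 by limma, exact permutation p = 0.00794).

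Cdkn1c, an imprinted gene that encodes p57, read 13.60, 12.72, 12.77 and 12.97 on the control arrays and 13.04, 12.74, 12.14, 12.36 and 12.22 on the irradiated arrays. Irradiated arrays 1 and 2 lay within the range of the controls, and arrays 3, 4 and 5 lay below it. The difference was -0.52 (95% confidence interval -1.02 to -0.01, adjusted p = 0.493 by limma), and -0.32 without control array 1, the highest.

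Cdkn2a showed the second largest difference of the members, and it did not pass the threshold with all arrays. Its brightest probe (NM_009877) read 8.002, 8.67, 8.23 and 8.09 on the control arrays and 8.48, 9.002, 10.63, 10.35 and 10.29 on the irradiated arrays. Irradiated array 1 lay inside the range of the controls, array 2 just above it, and arrays 3, 4 and 5 well above. The difference was 1.50 (SE 0.43, 95% confidence interval 0.55 to 2.45, adjusted p = 0.225 by limma, exact permutation p = 0.0397). The SD was 0.30 for the controls and 0.95 for the irradiated arrays. Without irradiated array 1 the difference was 1.82 with an adjusted p of 0.0408, and with any other array left out it did not pass.

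The second Cdkn2a probe carries the same accession and was likewise highest on irradiated arrays 3, 4 and 5. It read 4.37, 4.96, 4.51 and 4.51 on the control arrays and 4.72, 5.73, 7.24, 6.55 and 7.19 on the irradiated arrays. It was dim, and it was well above background on 3 of 4 control and 4 of 5 irradiated arrays. Its difference was 1.70 (adjusted p = 0.227 by limma), and 0.80 after normexp background correction. The files do not place either probe within the gene, so transcripts for p16 and for p19Arf cannot be told apart here.

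Cdkn2b, Cdkn2c and Cdkn2d, the other INK4 genes, gave small differences with overlapping groups. Cdkn2b, which encodes p15 and is known as a target of TGF-beta signaling, read 12.84, 12.18, 12.73 and 12.94 on the control arrays and 12.99, 12.81, 12.71, 12.60 and 13.10 on the irradiated arrays. Its difference was 0.17 (95% confidence interval -0.19 to 0.54, adjusted p = 0.827 by limma), and that of its second probe was 0.33 (95% confidence interval -0.30 to 0.97). Control array 2 gave the lowest value for both Cdkn2b probes, and without it their differences were 0.0072 and 0.06.

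Cdkn2c, which encodes p18, read 10.88, 11.10, 10.87 and 10.55 on the control arrays and 10.86, 10.92, 11.17, 11.13 and 11.09 on the irradiated arrays. The difference was 0.19 (95% confidence interval -0.09 to 0.47, adjusted p = 0.714 by limma), and 0.09 without control array 4, the lowest. For Cdkn2d, which encodes p19Ink4d, it was 0.03 (95% confidence interval -0.22 to 0.28, adjusted p = 0.980 by limma), with control arrays between 12.32 and 12.78 and irradiated arrays between 12.40 and 12.75. In the gene table Cdkn2a and Cdkn2b lie near each other, with 1 gene model between them. The nearby Mtap, a gene of methionine salvage, read 8.49 to 8.93 on the control and 8.72 to 9.07 on the irradiated arrays. Its difference was 0.31 (adjusted p = 0.494 by limma).

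Cdkn1a and Cdkn2a ranked the irradiated arrays differently. Cdkn1a was highest on irradiated arrays 2 and 1, and of the irradiated arrays these were lowest for Cdkn2a. Cdkn1c ran against Cdkn2a over the 9 arrays (Pearson r -0.88), Cdkn2c ran with it (r 0.78), and Cdkn1b ran against Cdkn1a (r -0.80). Between Cdkn1a and Cdkn2a r was 0.51. These are descriptions over 9 arrays that share the group difference, and the labels do not tell what sets irradiated arrays 1 and 2 apart.

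**Figure D3:**
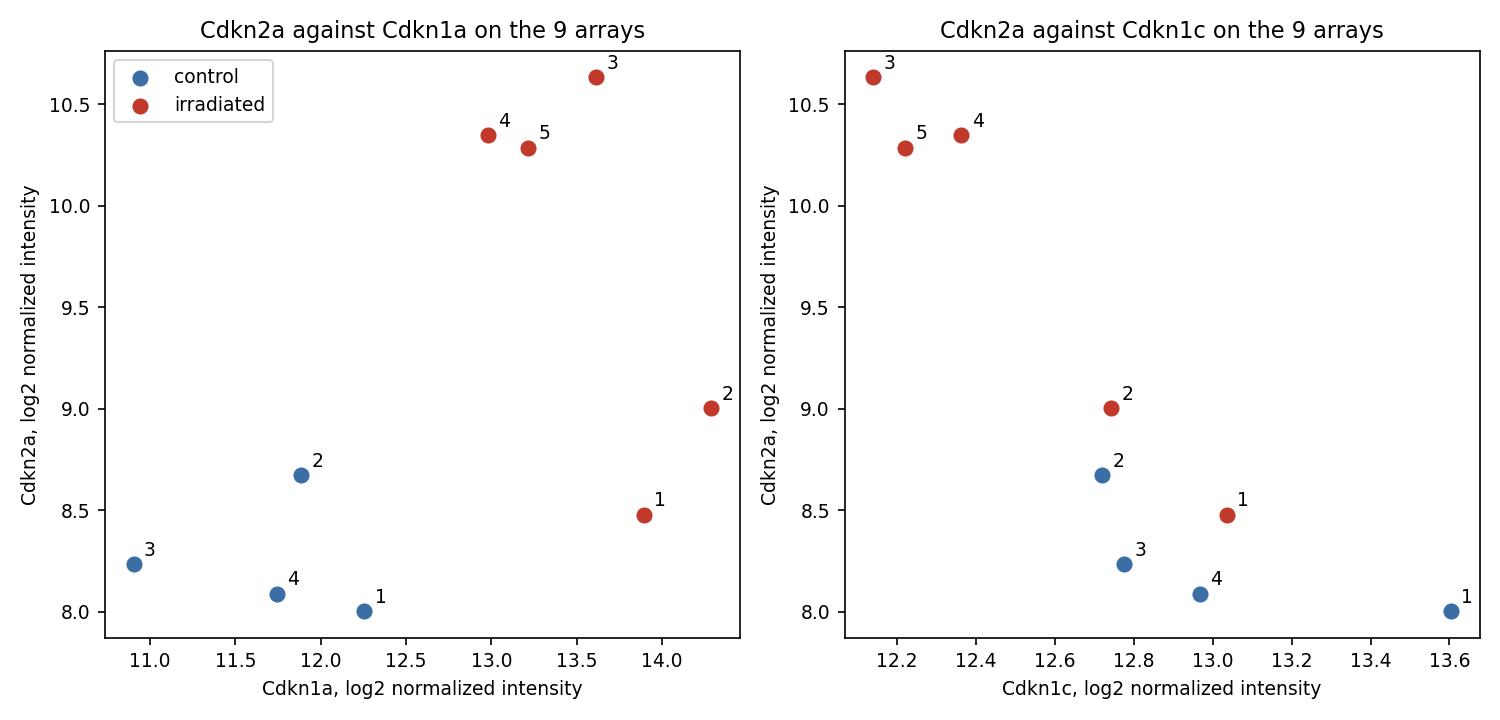
Log2 normalized intensity of Cdkn2a (vertical axis) against Cdkn1a (left) and Cdkn1c (right) on the 9 arrays, with control arrays in blue and irradiated arrays in red, numbered. Irradiated arrays 3, 4 and 5 lie above 10 for Cdkn2a and below 12.4 for Cdkn1c, while irradiated arrays 1 and 2 are highest for Cdkn1a.

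Among 15691 genes well above background on all arrays, those most like Cdkn1a in pattern by Pearson r were Oasl1 (0.99), Derl2 (0.98), Ldha (0.97), Ttc39c (0.97) and Gm11110 (0.97). Oasl1 kept an r of 0.94 after the group means had been removed, and ranked the 9 arrays as Cdkn1a did (Spearman rho 1.00). Most like Cdkn2a were Fxyd4 (0.99) and Porcn (0.98). For Cdkn1b these were Lifr (0.97) and Hnrnpd (0.94), for Cdkn1c Slc4a4 (0.97) and Oxa1l (0.94), for Cdkn2b Mtif3 (0.98) and Tcp1 (0.97), for Cdkn2c Tbc1d10a (0.96) and Il11 (0.95), and for Cdkn2d Nudt2 (0.91) and Ms4a6b (0.90). No p is given, since each is the highest of many values over 9 arrays.

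Some arrays shared features of the scan. In 4 pairs, each of 1 control and 1 irradiated array, image position and local background were nearly equal, and both members of a pair deviated together from their groups (r 0.20 to 0.46 across probes). Irradiated array 1 had no such partner and was dropped from this fit. Within pairs, Cdkn1a rose by 2.03, 1.73, 2.08 and 1.47 (mean 1.83, adjusted p = 0.0218 by limma). Cdkn2a was higher by 1.00, 1.96, 2.11 and 2.20 (mean 1.82, adjusted p = 0.0346 by limma), and its second probe by 2.09 on average (adjusted p = 0.0311 by limma). Both genes were higher in each of the 4 pairs.

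Cdkn1c was lower within pairs by -0.86, -0.58, -0.41 and -0.75 (mean -0.65, adjusted p = 0.0383 by limma). Cdkn1b differed by -0.54, -0.40, -0.24 and -0.35 (mean -0.38, adjusted p = 0.0527 by limma). Thus 2 members rose and 1 fell within pairs, where 2.18% of all genes rose and 1.55% fell. Without irradiated array 1 but with no pairs, Cdkn1c had the same mean difference and an adjusted p of 0.242. The labels do not name these pairs.

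**Figure D4:**
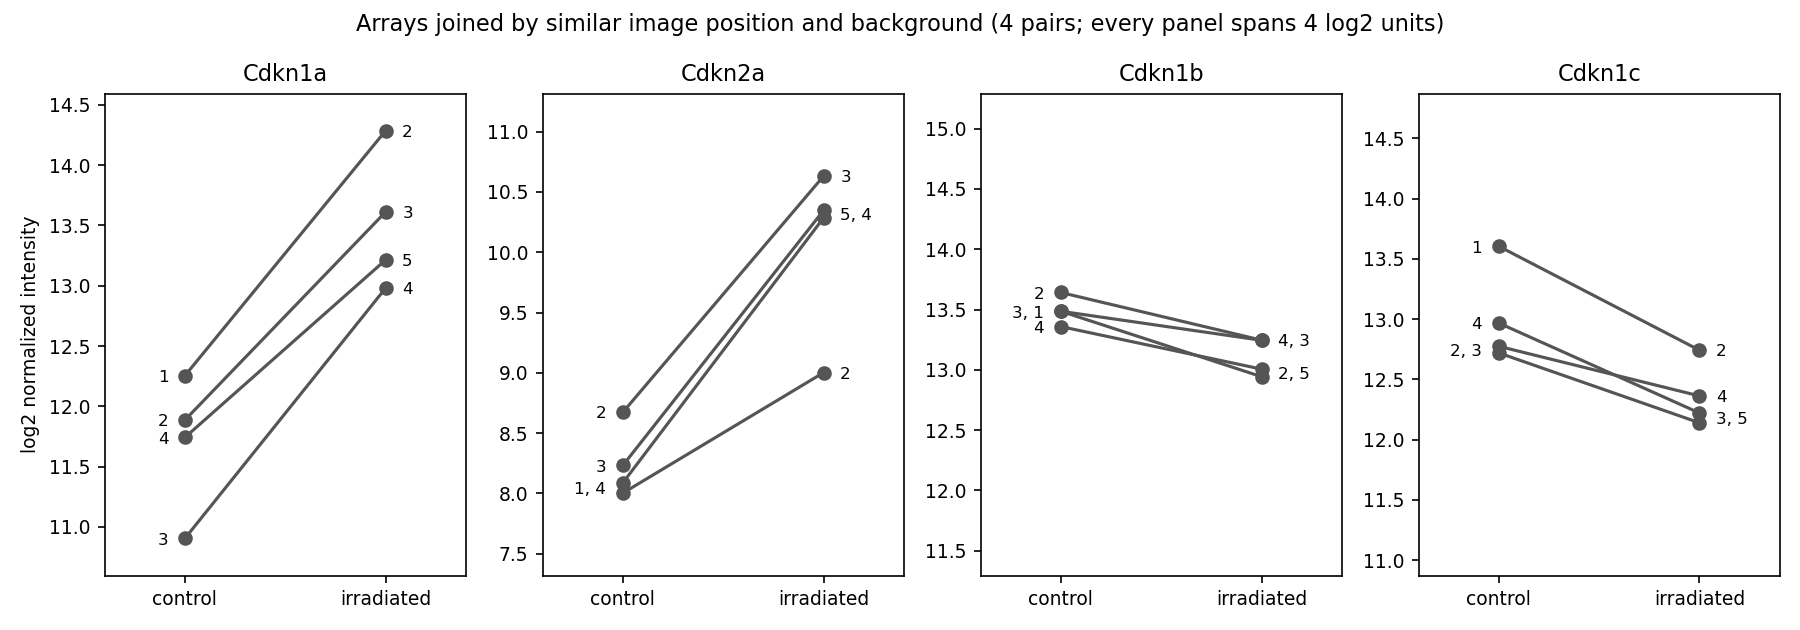
Log2 normalized intensity of 4 members in the 4 scan pairs, each line joining a control to an irradiated array, with array numbers beside the points. Cdkn1a and Cdkn2a rise along every line and Cdkn1b and Cdkn1c fall along every line, with the smallest Cdkn2a step (1.00) in the pair of irradiated array 2.

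Around the inhibitors, 6 lists of genes were read by their counts. Of 27 p53 target genes (Trp53 itself included, Cdkn1a left out), 5 rose and none fell, against 0.245% and 0.149% of all genes. Their median difference was 0.36, against 0.01 for all named genes. The 5 were Gdf15, a secreted stress cytokine (3.64, adjusted p = 5.23e-05), Eda2r, a TNF receptor family member (2.47, adjusted p = 0.0326), Phlda3, an inhibitor of Akt (1.19, adjusted p = 0.0415), Zmat3, an RNA-binding protein (0.98, adjusted p = 0.0419) and Tnfrsf10b, a death receptor (0.83, adjusted p = 0.0433), all by limma. Eda2r was well above background on 1 of 4 control arrays and on all irradiated arrays, and its difference was 0.68 after normexp background correction (adjusted p = 0.117 by limma) and 1.54 in the authors' normalized table (adjusted p = 0.688 by limma), so that it passed in neither. After normexp background correction Tnfrsf10b did not pass (0.80, adjusted p = 0.0570 by limma). In the authors' normalized table neither Tnfrsf10b (0.47, adjusted p = 0.376 by limma) nor Zmat3 (0.66, adjusted p = 0.113 by limma) passed. Ccng1 (0.96, adjusted p = 0.0763), Mdm2, the p53 ligase (0.30), and Trp53 (0.32, and 0.07 without control array 3) did not pass. Ccng1 passed without irradiated array 1 (0.81, adjusted p = 0.0290 by limma) and within scan pairs (0.81, adjusted p = 0.0486 by limma). Relative to the control mean, the mean over the genes of this list was 0.81, 0.68, 0.60, 0.43 and 0.45 on irradiated arrays 1 to 5. It was thus higher on arrays 1 and 2, as Cdkn1a was. Within scan pairs 10 of the 27 rose, against 2.18% of all genes. Of 20 of these genes with a promoter window, Ccng1 alone held the p53 consensus match described above, against 0.107% of all genes with a window. Gdf15 alone of the 5 stayed past the threshold whichever array was left out.

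The targets of the inhibitors gave fewer calls. Of 14 cyclins, CDKs and their partners in G1 and S phase, 1 rose, against 0.245% of all genes. This was Ccnd1 (cyclin D1, the partner of CDK4 and CDK6), which read 14.12, 14.38, 14.45 and 14.40 on the control arrays and 15.33, 15.57, 15.22, 15.06 and 14.99 on the irradiated arrays. All irradiated arrays lay above the controls, as they did for 3.22% of all genes. The Ccnd1 difference was 0.89 on average (SE 0.13, adjusted p = 0.0312 by limma), and 0.87 within scan pairs, where it did not pass (adjusted p = 0.0606 by limma). With single arrays left out it was 0.81 to 0.96 and passed only without irradiated array 1 (highest adjusted p = 0.101 by limma). Cdk4 (-0.03), Cdk2 (-0.01) and Cdk6 (0.47, and 0.26 to 0.30 under the other scalings) did not pass. Of 17 genes of the RB and E2F families and the DREAM complex none passed. Their median was 0.08, and 0.02 to 0.08 under the other scalings. Rb1 differed by -0.14 and E2f1 by 0.42 (adjusted p = 0.222 by limma). Without irradiated array 4 Rb1 was -0.08, and in the authors' normalized table E2f1 was 0.17.

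Of 30 genes of replication and mitosis, none passed the threshold, although 28 had a positive difference (27 to 29 under the other scalings). The median was 0.41, and 0.26 to 0.36 under the other scalings. Mki67, the proliferation marker Ki-67, differed by 0.42 (0.26 without irradiated array 2), Cdk1, the mitotic kinase, by 0.67 (0.38 as the mean of its probes), Top2a by 0.57 and Ccnb1 by 0.52. Relative to the control mean, the mean over the genes of this list was 0.69 and 0.86 on irradiated arrays 1 and 2. It was 0.47 on array 3, and 0.00 and -0.02 on arrays 4 and 5. Arrays 1 and 2, with the highest Cdkn1a values, thus also had the highest values for these genes.

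Of 35 genes known to regulate the inhibitors, none passed and the median was -0.08 (-0.05 under the other scalings). Of the Polycomb genes, which are known to silence the Cdkn2a locus, Bmi1 differed by 0.01, Ezh2 by 0.14, Cbx8 by 0.25, Ring1 by -0.25 and Cbx7 by -0.63, and for each the groups overlapped. With single arrays left out Ezh2 was 0.07 to 0.25. Cbx7 had widely spread arrays (adjusted p = 0.828 by limma), and within scan pairs it differed by -0.53 (adjusted p = 0.0499 by limma). Foxo1, a transcription factor of Cdkn1b, lay lower on all irradiated arrays and did not pass (-0.31, adjusted p = 0.288 by limma). In this list 1 gene lay higher on all irradiated arrays and 1 lower, against 3.22% and 1.74% of all genes. Foxo1 was named after its values had been seen, and within scan pairs it differed by -0.34 (adjusted p = 0.0402 by limma). Within scan pairs 1 gene of the list rose, Cks1b, a partner of CDKs (0.53, adjusted p = 0.0369 by limma), and 3 fell, Foxo1 and Cbx7 among them. The shares of all genes that rose and fell there were 2.18% and 1.55%. Ring1, Cbx8 and Cks1b were also named after their values had been seen.

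Of 70 genes linked to senescence and its secretory phenotype, 2 rose and none fell, against 0.245% and 0.149% of all genes. The median difference was 0.31 (0.20 in the authors' normalized table). Areg, an EGF receptor ligand, read 9.07, 9.18, 8.41 and 8.92 on the control arrays and 10.83, 11.44, 12.04, 11.64 and 11.69 on the irradiated arrays (difference 2.63, adjusted p = 0.00668 by limma). Fn1, fibronectin, rose by 0.90 (adjusted p = 0.0326 by limma). With single arrays left out Areg passed each time, whereas Fn1, at 0.81 to 0.98, passed only without irradiated array 1 (highest adjusted p = 0.116 by limma). For neither gene did the groups overlap, and 3.22% of all genes likewise lay higher on all irradiated arrays. Il6, a cytokine of the secretory phenotype, read 7.24, 6.66, 6.50 and 7.62 on the control arrays and 7.01, 9.48, 10.44, 10.43 and 10.30 on the irradiated arrays (difference 2.53, adjusted p = 0.178 by limma), so that irradiated array 1 stayed at the control level, as it did for Cdkn2a. Il6 passed without irradiated array 1 (3.16, adjusted p = 0.0071 by limma) and within scan pairs (3.16, adjusted p = 0.0276 by limma). Glb1, the gene of senescence-associated beta-galactosidase, differed by 0.28 and Lmnb1, a lamin known to be lost in senescence, by 0.13, and neither passed. In the authors' normalized table Glb1 was 0.16, and with single arrays left out Lmnb1 was 0.04 to 0.23. The mean over the genes of this list, relative to the control mean, was 0.16 on irradiated array 1 and 0.67 to 0.79 on arrays 2 to 5. Within scan pairs 14 of the 70 rose and 1 fell, against 2.18% and 1.55% of all genes.

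**Figure D5:**
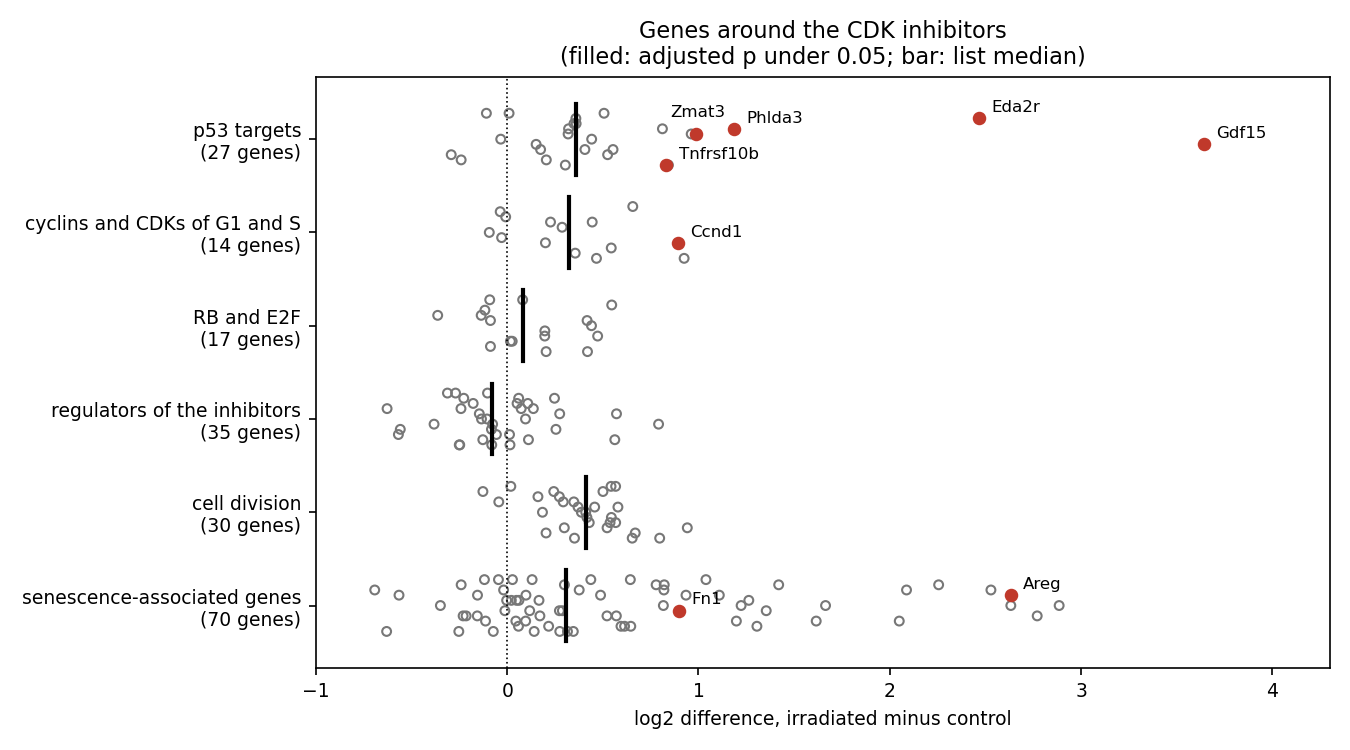
Log2 difference between irradiated and control arrays for each gene of 6 lists around the CDK inhibitors (horizontal axis), with filled points past the threshold and black bars at the list medians. The 8 named points are the genes that passed, 5 of them among the p53 targets, while the cell division genes lie mostly right of 0 without passing.

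These are RNA levels of whole tissue, in which fewer cells of a type and less RNA per cell cannot be told apart. Type II alveolar markers were bright on all arrays, with 7 of 7 genes well above background throughout and a summed intensity of 1502578 to 1633862 in control and 1479305 to 1686098 in irradiated arrays. None of 15 marker lists had a gene past the threshold with all arrays. Within scan pairs 2 smooth muscle genes and 1 gene each of the type II, club and endothelial lists fell, and 1 gene each of the type I and macrophage lists rose. Among all genes, 2.18% rose and 1.55% fell within scan pairs. The 6 skeletal muscle genes summed to 1964 to 113713 in control and 908 to 2004 in irradiated arrays, the 7 cardiac muscle genes to 171903 to 326353 and 11635 to 280238, and the 4 adipose genes to 9567 to 17973 and 1372 to 11954. Single arrays set the ends of the muscle ranges. The mean over the skeletal muscle genes, relative to their control mean, was 4.31 on control array 3 and -1.20 to -1.88 on the other controls. That over the cardiac muscle genes was -6.17 on irradiated array 1 and -0.49 to 0.38 on irradiated arrays 2 to 5. Under each of 4 scalings all genes had negative differences in the lists for smooth muscle (5 genes, median -0.53 here), cardiac muscle (-1.44), skeletal muscle (-1.93), adipose tissue (-2.08), neutrophils (3 genes, -0.71), B cells (4 genes, -0.32), erythroid cells (2 genes, -0.38) and club cells (2 genes, -0.30). Of 5 macrophage genes, 4 had a positive difference and Marco a negative one (-0.63). Adgre1 and Mrc1 lay higher on all irradiated arrays, as did 3.22% of all genes, and these 3 were named after their values had been seen. The list summed to 52141 to 117033 in control and 88441 to 133373 in irradiated arrays. No list was at 0 in either group. The part of these tissue differences in the values of the CDK inhibitors was not tested.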

How the data were processed

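Lung RNA of 4 control and 5 irradiated samples was measured on Agilent whole genome arrays. The authors deposited, per array, background-corrected intensity without normalization between arrays, and a table of quantile-normalized intensity. The arrays named no genome build. Probes were named by accession with RefSeq (GRCm38.p6), which gave a symbol to 27457 of 39429 probes (69.6%). Control spots and outlier spots were left out, probes brighter than 1.4-fold their local background on 4 or more arrays were kept, log2 values were quantile normalized, and spots of a probe averaged. Dimmer probes can lose difference to background. Groups were compared with limma 3.58.1 (R 4.3.3, intensity trend, Benjamini-Hochberg over all 39303 probes) and an exact two-sided permutation test over 126 arrangements. The fit was tested on simulated data. Between 72.8% and 89.1% of spots were well above background, and saturation was marked at no spot. Precision is limited by the number of arrays. Named are the members, the list genes past the threshold, fixed genes of each list (1 is not reported here) and the genes most like a member. The members and lists were chosen with earlier results of these data known. Alternatives changed background correction, scaling, filter, variance model, blocks and arrays.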

Additional observations from a re-analysis of the deposited data

How the results depend on the processing

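With each alternative, Cdkn1a kept a positive difference, from 1.55 to 2.53, and with each array left out it was 1.64 to 2.09 (adjusted p 0.0408 to 0.145). Its adjusted p exceeded 0.05 in the authors' normalized table (1.55, adjusted p = 0.0504), without an intensity trend (1.90, adjusted p = 0.0770) and with a replicate block over the 4 shared replicate numbers (2.00, adjusted p = 0.258). Same-numbered arrays did not deviate together (r -0.17 to 0.06), so the numbers were not read as pairs. Cdkn2a kept a positive difference, from 1.28 to 1.82, and passed only without irradiated replicate 1 (1.82) and in the scan pair block (1.82). Cdkn1c was negative in all alternatives, at -0.65 to -0.32, and passed only in the scan pair block (-0.65). Cdkn1b, Cdkn2b and Cdkn2c kept their direction and passed in none. Cdkn2d, near 0, turned to -0.0076 in the authors' table, and ranged from -0.036 to 0.12 with single arrays left out.

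Of the 7 members, 1 passed, against 0 in the authors' table, with the replicate block, without a trend and at an adjusted p under 0.01, 3 within scan pairs, and 0 to 2 with single arrays left out. Of all probes, 131 passed, against 197 with the filter on all 9 arrays, 44 in the authors' table, 1 with the replicate block, 1099 within scan pairs, 44 without a trend, 205 with array weights, 5 at an adjusted p under 0.01, and 5 to 476 with single arrays left out. For p53 targets, counted after seeing the data, 5 became 3 with normexp, 2 in the authors' table, 1 with the replicate block, 10 within scan pairs, 1 without a trend, 1 at an adjusted p under 0.01, and 1 to 7 with single arrays left out. For senescence genes, also counted after seeing the data, 2 became 0 with the replicate block, 15 within scan pairs, 1 without a trend, 1 at an adjusted p under 0.01, and 1 to 11 with single arrays left out. Of the 8 list genes that passed, Gdf15 alone passed with the replicate block, and Gdf15 and Areg without a trend, and the second Cdkn1a probe passed in neither (adjusted p 0.258 and 0.0501). The cause of these changes was not tested. With 4 and 5 arrays the count of probes past the threshold rested on single arrays, and the highest count without an array, 476, was without irradiated replicate 1. Values of dim probes, such as the second probes of Cdkn1a and Cdkn2a, were smaller after normexp (2.35 and 0.80, against 3.16 and 1.70).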
